A study of Homo sapiens with 14 samples.

Results

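Messenger RNA of 10 enzymes that make, interconvert or clear sex steroids was followed in CWR22Rv1 cells, an established human prostate cancer line, during treatment with inhibitors of fucosylation and sialylation. The enzymes are AKR1C1, AKR1C2 and AKR1C3 (aldo-keto reductases), UGT2B15, UGT2B17 and UGT2B28 (UDP-glucuronosyltransferases), SRD5A1, HSD17B4, HSD17B6 and HSD17B11, taken by gene symbol or gene number from 27819 genes shared by the 4 count tables. They were chosen with the fold changes of these same comparisons known, so their values are described and no p-value is given for them. All 14 libraries came from 1 cell line at 72 h, with 3 libraries of cells in DMSO as the vehicle, 3 with 30 μM Fucotrim I, 2 with 60 μM Fucotrim II, 3 with 100 μM SGN-2FF and 3 with 2 μM P-SiaFNEtoc. The labels name no genetic change and no added androgen in any group. Fucotrim I and Fucotrim II are rhamnose-1-phosphate derivatives aimed at the de novo route to GDP-fucose, SGN-2FF is 2-fluorofucose, and P-SiaFNEtoc is a fluorinated sialic acid analogue that inhibits sialyltransferases. The study describes its samples as biological repeats, and spread between libraries is the only error measured here.

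Libraries held between 12553094 and 19981453 counts on genes, and levels are given as CPM, counts scaled to the size of the library, after TMM scaling across all 14 libraries. The luminal prostate markers HOXB13, KRT8, KRT18 and EPCAM were each at 85.5 to 827 CPM in every library. Of 8 markers of other cells, CD3E was at 0 in every library, KRT5, TP63, PECAM1, VWF and PTPRC had at most 5 counts, COL3A1 had 3 to 19 counts, and COL1A1 had 15.9 to 29.2 CPM. The 4 prostate markers summed to 1160 to 1250 CPM in DMSO and to 1430 to 1940 CPM with the inhibitors, but with Fucotrim I EPCAM did not follow, at 85.5, 91.3 and 94.8 CPM against 94.0 to 96.5 CPM in DMSO. The 8 other markers summed to 17.5 to 29.6 CPM over all libraries, with 17.7 to 19 CPM in DMSO and 18.4 to 24.4 CPM with Fucotrim I. With Fucotrim II they summed to 23.5 and 29.6 CPM, above every DMSO library and overlapping Fucotrim I. The part of these markers in the results below was not tested. In bulk RNA, a change in the number of cells that express a gene and a change in RNA per cell cannot be told apart.

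Androgens drive growth and secretion of prostate cells, and the level of active hormone in a prostate cell depends on enzymes that run in both directions. AKR1C3 reduces androstenedione to testosterone, SRD5A1 reduces testosterone and related steroids to their dihydro forms, and HSD17B6 oxidises androstanediol back towards dihydrotestosterone. AKR1C2 reduces dihydrotestosterone to the weak androstanediol, AKR1C1 inactivates progesterone, HSD17B4 and HSD17B11 oxidise the hydroxyl group that gives sex steroids their activity, and UGT2B15, UGT2B17 and UGT2B28 attach glucuronic acid so that androgens can leave the cell. The AKR1C genes are also known targets of NRF2, the transcription factor of the response to electrophiles and oxidants, and UGT2B15 and UGT2B17 are known to be repressed by androgens in prostate cells.

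On hg38, AKR1C1 (chr10:4963253-4983283, plus strand), AKR1C2 (chr10:4987775-5018031, minus strand) and AKR1C3 (chr10:5035354-5107686, plus strand) lie side by side. On chromosome 4 lie UGT2B17 (chr4:68537173-68576413, minus), UGT2B15 (chr4:68646597-68670652, minus), UGT2B28 (chr4:69280475-69295050, plus) and HSD17B11 (chr4:87336515-87391188, minus). SRD5A1 (chr5:6633427-6674386, plus) and HSD17B4 (chr5:119452465-119637199, plus) are on chromosome 5, and HSD17B6 (chr12:56752161-56787790, plus) is on chromosome 12.

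The 3 AKR1C genes are near copies of each other, which bears on how reads were divided among them. Of all 100-base windows of the annotated transcripts, 20.1% of those of AKR1C2, 13.6% of those of AKR1C1 and 2.0% of those of AKR1C3 also occurred in another gene. AKR1C1 and AKR1C2 shared 799 such windows. For UGT2B15, UGT2B17 and UGT2B28 the shares were 12.4%, 9.8% and 5.3%, for HSD17B6 1.2%, for HSD17B11 0.8%, for HSD17B4 0.3% and for SRD5A1 0. Individual levels of AKR1C1 and AKR1C2, and of UGT2B15 and UGT2B17, are therefore uncertain where reads could have been split between the copies, and sums over each family are given as well. Of the exon bases of HSD17B6, 5.8% lie opposite exons of PRIM1, and the strand setting used for counting is not given in the sources used here.

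The likeness of the AKR1C genes extends to the bases before their start sites, which are shown because these 3 genes were higher than DMSO together with several inhibitors. RefSeq windows of GRCh38.p14 matched 7 of the 10 symbols, the exceptions being UGT2B17, UGT2B28 and HSD17B6. AKR1C3 has windows at 2 start sites, of which the second is that of the GENCODE canonical transcript. Each line gives the 250 bases before the start, 5′ to 3′, and capitals mark the longest run found in all 4 windows.
AKR1C1 (chr10:4963165-4963414, plus strand): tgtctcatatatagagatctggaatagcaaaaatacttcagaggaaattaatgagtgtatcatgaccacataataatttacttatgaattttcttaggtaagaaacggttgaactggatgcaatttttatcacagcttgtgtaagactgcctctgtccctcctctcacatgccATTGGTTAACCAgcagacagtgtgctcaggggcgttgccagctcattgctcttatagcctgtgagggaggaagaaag
AKR1C2 (chr10:5003858-5004107, minus strand): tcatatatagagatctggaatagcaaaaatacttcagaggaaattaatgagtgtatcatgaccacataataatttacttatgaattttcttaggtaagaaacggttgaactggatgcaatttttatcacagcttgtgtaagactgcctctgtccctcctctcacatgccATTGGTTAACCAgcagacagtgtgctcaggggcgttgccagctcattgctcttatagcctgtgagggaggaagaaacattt
AKR1C3, start 1 (chr10:5048531-5048780, plus strand): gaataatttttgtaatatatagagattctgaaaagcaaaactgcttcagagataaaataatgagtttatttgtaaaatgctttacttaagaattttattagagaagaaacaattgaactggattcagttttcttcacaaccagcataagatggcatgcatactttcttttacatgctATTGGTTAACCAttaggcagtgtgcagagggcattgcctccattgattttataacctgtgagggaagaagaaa
AKR1C3, start 2 (chr10:5094164-5094413, plus strand): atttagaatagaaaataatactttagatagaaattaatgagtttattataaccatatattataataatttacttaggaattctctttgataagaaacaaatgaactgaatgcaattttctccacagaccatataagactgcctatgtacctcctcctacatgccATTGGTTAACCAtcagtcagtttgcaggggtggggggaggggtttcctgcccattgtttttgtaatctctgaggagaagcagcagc

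Over aligned columns, inner gaps included, the windows of AKR1C1 and AKR1C2 were 98.0% identical (245 of 250 columns). These 2 windows are offset against each other by a few bases, and the gap placed for this counts as a difference. Either of them and the windows of AKR1C3 were 73.1 to 74.4% identical. The 2 windows of AKR1C3 were 69.3% identical. The run in capitals, ATTGGTTAACCA, began at position -77 from the start of AKR1C1, -81 from that of AKR1C2, and -73 and -86 from the starts of AKR1C3. Searched on both strands, it was in 5 of 35116 windows of the same length (0.0142%). The AKR1C windows from which the run was taken are 4 of these, so the search itself found only the fifth, that of PPFIA2. Whether the run is rarer than other runs of its length was not tested. The core of the NRF2 element, TGACNNNGC, was in 10.9% of all windows and in none of the 8 windows of these enzymes. A match or its absence in these letters does not show whether a factor binds.

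Per kilobase of the GENCODE canonical transcript, HSD17B4 had the highest level in DMSO, at 86.3 ± 0.851 CPM per kb (SD, n = 3), followed by HSD17B11 at 38.9 ± 1.41, AKR1C3 at 23.8 ± 0.436, AKR1C2 at 9.33 ± 0.308 and SRD5A1 at 3.94 ± 0.108 CPM per kb. The libraries of these neighbours did not overlap. HSD17B6 came next at 1.19 ± 0.156 CPM per kb, and its range of 1.02 to 1.33 touched that of UGT2B15, 0.47 to 1.06. UGT2B15 in turn, at 0.726 ± 0.3 CPM per kb, was not separated from AKR1C1, at 0.597 ± 0.0403. UGT2B17 at 0.231 ± 0.0701 and UGT2B28 at 0.193 ± 0.115 CPM per kb were lowest and overlapped. The canonical transcripts of AKR1C1, AKR1C2 and AKR1C3 are 6543, 3215 and 1186 bases long. AKR1C2 and AKR1C3 had like CPM, so their difference per kilobase comes from these lengths. The order of all enzymes rests on the canonical lengths, and which transcripts these cells make was not tested.

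AKR1C3, which makes testosterone, was above DMSO in every treated library. It was at 28.3, 27.7 and 28.8 CPM in DMSO, and at 55.7, 45.4 and 43.2 CPM with Fucotrim I, 63.6 and 70.8 CPM with Fucotrim II, 48.1, 45.6 and 44.7 CPM with SGN-2FF, and 54.8, 60.1 and 57.5 CPM with P-SiaFNEtoc. The lowest treated library thus stood well above the highest DMSO library. Its log2 fold change was 0.77 ± 0.08 (SE) with Fucotrim I, 1.24 ± 0.07 with Fucotrim II, 0.72 ± 0.06 with SGN-2FF and 1.03 ± 0.06 with P-SiaFNEtoc, or 1.71-, 2.37-, 1.64- and 2.04-fold. Concentrations differ between the inhibitors and all 4 comparisons use the same DMSO libraries, so these values stand side by side and no inhibitor was tested against another.

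AKR1C2, which inactivates dihydrotestosterone, followed another order. It was at 30.3, 28.9 and 30.8 CPM in DMSO and was highest with P-SiaFNEtoc, at 76.4, 78.5 and 64.8 CPM, a log2 fold change of 1.29 ± 0.06 or 2.45-fold. With SGN-2FF it was at 40.3, 39.6 and 43.2 CPM (log2 fold change 0.46 ± 0.06). With Fucotrim I it was at 46.1, 31.9 and 35.4 CPM (0.34 ± 0.11), and with Fucotrim II at 33.0 and 38.6 CPM (0.25 ± 0.09). No treated library overlapped DMSO, although 1 Fucotrim I library lay only about 1 CPM above it. Both Fucotrim values rest on which libraries are used, that of Fucotrim I being 0.17 without replicate 1 and that of Fucotrim II 0.36 without replicate 1 and 0.13 without replicate 2.

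AKR1C1, the progesterone-inactivating member, had the fewest counts of the 3, between 57 and 188 per library. It was at 3.69, 3.84 and 4.20 CPM in DMSO, 4.38, 3.85 and 5.44 CPM with Fucotrim I, 4.99 and 5.54 CPM with Fucotrim II, 7.42, 6.06 and 5.62 CPM with SGN-2FF, and 9.04, 9.14 and 8.76 CPM with P-SiaFNEtoc. Only the Fucotrim I libraries overlapped DMSO. Log2 fold changes were 0.22 ± 0.17 with Fucotrim I, 0.43 ± 0.16 with Fucotrim II, 0.72 ± 0.15 with SGN-2FF and 1.21 ± 0.13 with P-SiaFNEtoc. Among all genes tested with P-SiaFNEtoc, the log2 fold changes of AKR1C2, AKR1C1 and AKR1C3 were at the 99.9th, 99.8th and 99.7th percentiles, which describes the values that chose them.

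**Figure D1:**
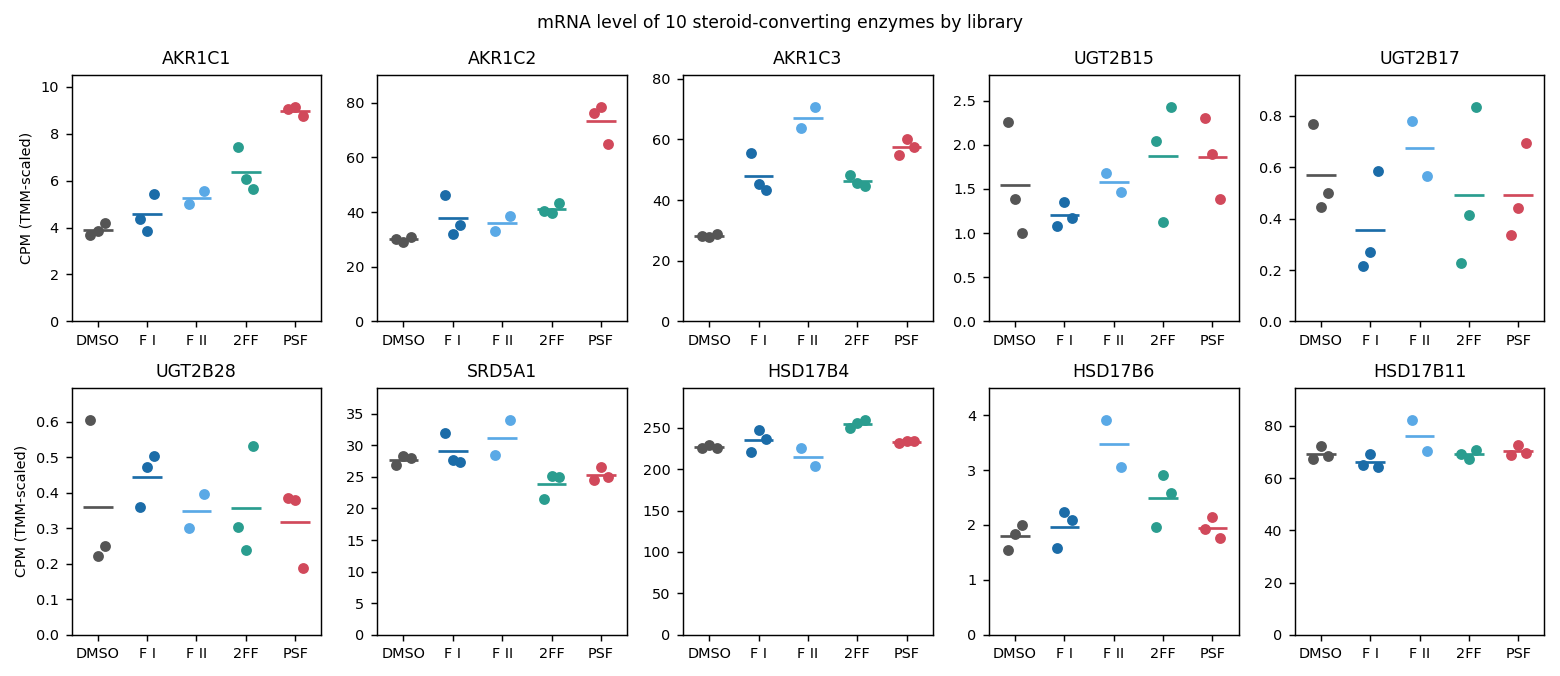
mRNA level of each enzyme in CPM after TMM scaling (linear vertical axes from 0, a scale of its own for each gene) in the 14 libraries, by group (F I, Fucotrim I; F II, Fucotrim II; 2FF, SGN-2FF; PSF, P-SiaFNEtoc). Points are libraries and lines are group means. AKR1C3 lay at 27.7 to 28.8 CPM in DMSO and at 43.2 to 70.8 CPM in all treated libraries, while the points of UGT2B15, UGT2B17 and UGT2B28 spread over each other.

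Counts were also summed over the 3 AKR1C genes, so that division of reads among them does not matter. Reads that map to several genes, if left uncounted, would still be missing from the sum and from the shares below. Levels of the sum were 60.5 to 63.8 CPM in DMSO, 81.1 to 106 CPM with Fucotrim I, 102 and 115 CPM with Fucotrim II, 91.3 to 95.8 CPM with SGN-2FF and 131 to 148 CPM with P-SiaFNEtoc. None of the treated libraries reached down to DMSO. The sum had log2 fold changes of 0.54 ± 0.08, 0.80 ± 0.07, 0.60 ± 0.05 and 1.17 ± 0.05 in that order of inhibitors.

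The make-up of the sum also shifted. AKR1C3 took 45.1 to 45.9% of AKR1C counts in DMSO, 51.4 to 56.0% with Fucotrim I, 61.6 and 62.6% with Fucotrim II, 47.8 to 50.2% with SGN-2FF and 39.1 to 43.9% with P-SiaFNEtoc. Its share was thus higher than in DMSO in every library of the 3 fucosylation inhibitors and lower in every P-SiaFNEtoc library. AKR1C2 moved the other way, from 47.8 to 48.6% in DMSO to 32.5 and 33.6% with Fucotrim II and to 49.4 to 54.5% with P-SiaFNEtoc. AKR1C1 held 4.12 to 7.75% in all libraries. The log2 ratio of AKR1C3 to AKR1C2 counts was -0.10 to -0.06 in DMSO, 0.27 to 0.51 with Fucotrim I, 0.95 and 0.87 with Fucotrim II, 0.05 to 0.26 with SGN-2FF and -0.48 to -0.17 with P-SiaFNEtoc.

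**Figure D2:**
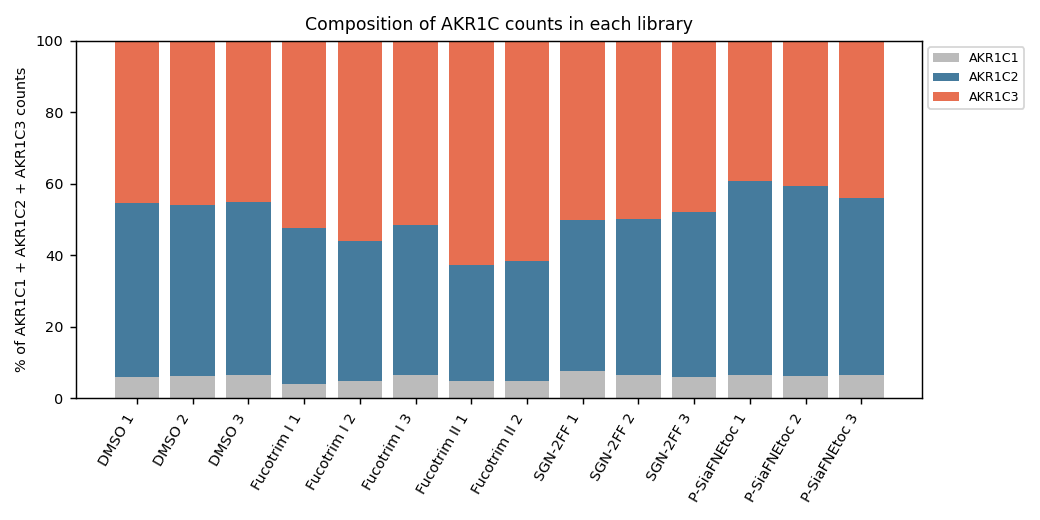
Share of AKR1C1, AKR1C2 and AKR1C3 in their summed counts (percent, vertical axis from 0 to 100) in each of the 14 libraries (horizontal axis). AKR1C3, the top segment, reached 62.6% with Fucotrim II and fell to 39.1% with P-SiaFNEtoc, against 45.1 to 45.9% in DMSO.

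The 3 glucuronosyltransferases had few counts. UGT2B15 had 41, 25 and 16 counts in DMSO and 14 to 48 counts in the treated libraries, or 1.00 to 2.26 CPM in DMSO and 1.08 to 2.43 CPM with the inhibitors. Its libraries overlapped DMSO with each inhibitor, and its log2 fold changes were -0.37 ± 0.31 with Fucotrim I, 0 ± 0.35 with Fucotrim II, 0.23 ± 0.30 with SGN-2FF and 0.27 ± 0.26 with P-SiaFNEtoc. UGT2B17 had 3 to 14 counts per library and passed the filter on low counts only in the fit of Fucotrim II, with a log2 fold change of 0.22 ± 0.41. UGT2B28 had 3 to 11 counts per library and did not pass it in any fit. The sum of the 3 genes gave -0.32 ± 0.27, 0.05 ± 0.31, 0.10 ± 0.30 and 0.11 ± 0.22 with Fucotrim I, Fucotrim II, SGN-2FF and P-SiaFNEtoc, so a difference from DMSO of the size of these errors was not detectable at this depth. DMSO replicate 1, at 3.63 CPM for the sum, stood apart from the other DMSO libraries at 2.06 and 1.76 CPM, and without it the sum gave 0.06, 0.43, 0.48 and 0.50. UGT2B15 alone then gave 0, 0.38, 0.60 and 0.65. The sum with SGN-2FF was -0.21 without SGN-2FF replicate 3, so neither the direction nor the size of these values is settled.

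SRD5A1, which forms dihydrotestosterone and related steroids, was at 26.8, 28.3 and 28.0 CPM in DMSO. It was lower in every SGN-2FF library (21.5, 25.1 and 25.0 CPM) and in every P-SiaFNEtoc library (24.4, 26.6 and 25.0 CPM). Of all genes tested, 36% and 33.7% had libraries that did not overlap DMSO with these inhibitors. The log2 fold changes of SRD5A1 were -0.20 ± 0.07 and -0.13 ± 0.07, neither past the threshold of an adjusted p under 0.05. Without SGN-2FF replicate 1, its value with SGN-2FF was -0.13. With Fucotrim I it was at 31.99, 27.7 and 27.4 CPM (0.07 ± 0.08), overlapping DMSO. The 2 Fucotrim II libraries, at 28.5 and 34.0 CPM (0.17 ± 0.09), were both above DMSO, but the value is 0.29 without replicate 1 and 0.03 without replicate 2.

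HSD17B6, which regenerates dihydrotestosterone, had 22 to 65 counts per library. It was at 1.54, 1.83 and 2.01 CPM in DMSO and at 3.91 and 3.05 CPM with Fucotrim II, both above DMSO, a log2 fold change of 0.95 ± 0.22 or 1.93-fold. With SGN-2FF it was at 1.97, 2.91 and 2.58 CPM (0.50 ± 0.22), with Fucotrim I at 1.58, 2.23 and 2.09 CPM (0.14 ± 0.24) and with P-SiaFNEtoc at 1.92, 2.14 and 1.76 CPM (0.12 ± 0.22). Under these 3 inhibitors the libraries overlapped DMSO.

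HSD17B4 and HSD17B11, the abundant oxidising enzymes, had the narrowest ranges of log2 fold change among the enzymes tested with all 4 inhibitors. HSD17B4 was at 225, 229 and 226 CPM in DMSO and at 250, 255 and 259 CPM with SGN-2FF, a small separation with a log2 fold change of 0.18 ± 0.04. Its P-SiaFNEtoc libraries, at 232, 234 and 234 CPM (0.04 ± 0.04), also lay just above DMSO, and it had 0.05 ± 0.05 with Fucotrim I and -0.08 ± 0.07 with Fucotrim II. HSD17B11 was at 67.4, 72.1 and 68.3 CPM in DMSO and within 64.4 to 82.2 CPM in all libraries, overlapping DMSO with every inhibitor. Its log2 fold changes were -0.06 ± 0.06, 0.13 ± 0.08, 0.01 ± 0.05 and 0.02 ± 0.05 with Fucotrim I, Fucotrim II, SGN-2FF and P-SiaFNEtoc.

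**Figure D3:**
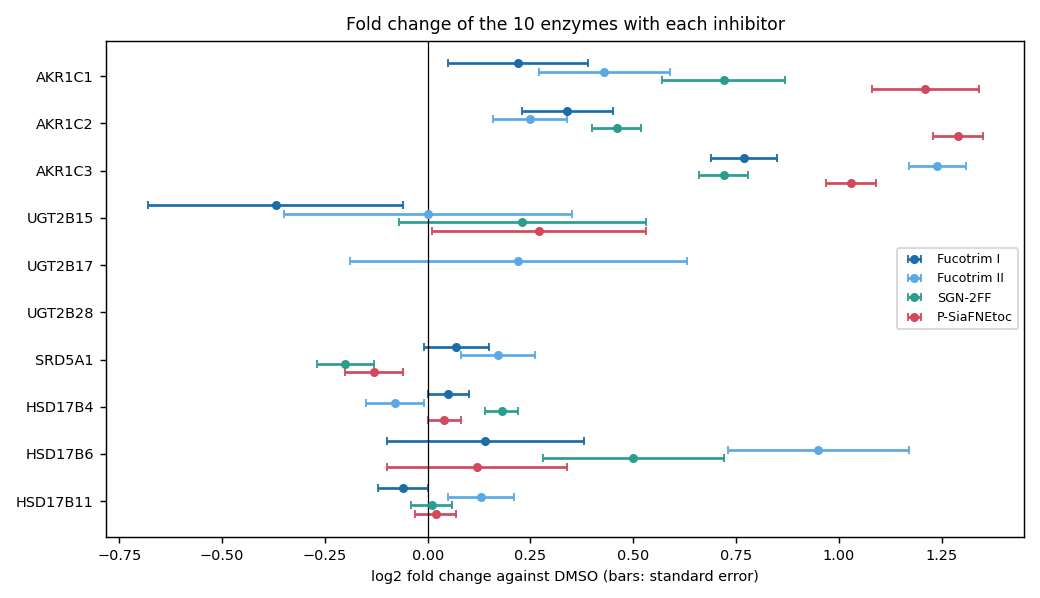
Log2 fold change against DMSO (horizontal axis) of each enzyme with each inhibitor, from edgeR fits of each inhibitor with DMSO. Points are estimates and bars are 1 standard error. UGT2B28 has no point and UGT2B17 only 1, since the others did not pass the filter on low counts. AKR1C1, AKR1C2 and AKR1C3 stand at 1.21, 1.29 and 1.03 with P-SiaFNEtoc, and AKR1C3 alone is beyond 1 with Fucotrim II, at 1.24.

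Counted over the enzymes that passed the filter on low counts, 2 of 8 were past an adjusted p of 0.05 with Fucotrim I (AKR1C2 and AKR1C3), 4 of 9 with Fucotrim II (these, AKR1C1 and HSD17B6), 4 of 8 with SGN-2FF (all 3 AKR1C genes and HSD17B4) and 3 of 8 with P-SiaFNEtoc (the 3 AKR1C genes), all of them higher than DMSO. Over all genes tested, 43.8%, 51.4%, 20.6% and 16.3% were past this threshold in either direction and 21.6%, 25.6%, 11.5% and 9.02% were past it and higher, in the same order. Libraries that did not overlap DMSO were seen for 2, 5, 5 and 5 of the enzymes, and for 52.6%, 67.7%, 36% and 33.7% of all genes tested. As the enzymes were chosen on these comparisons, nothing further is read from the counts.

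The other genes of steroid metabolism, 69 in all, were listed by function and tested in the same fits. These lists were also chosen with earlier results of these data known, so their shares and p-values are a description. Between 30 and 31 of them passed the filter on low counts with each inhibitor, and 11 had 0 or 1 count in all 14 libraries together. A gene with few counts in DMSO may pass this filter only through treated libraries where it is high. This applied to HSD17B3 with Fucotrim II and UGT1A6 with P-SiaFNEtoc, and it favours calls of a rise. With Fucotrim I, 11 rose and 6 fell of 30 tested (56.7% past the threshold, 43.8% over all genes), with a median log2 fold change of 0.15. With Fucotrim II, 12 rose and 6 fell of 31 (58.1%, 51.4% over all genes), with a median of 0.34. With SGN-2FF, 2 rose and 3 fell of 31 (16.1%, 20.6% over all genes), with a median of 0.05. With P-SiaFNEtoc, 10 rose and none fell of 31 (32.3%, 16.3% over all genes), with a median of 0.15. The median over all genes was 0 to 0.01. Of all genes tested, 21.6%, 25.6%, 11.5% and 9.02% rose and 22.1%, 25.7%, 9.08% and 7.33% fell with Fucotrim I, Fucotrim II, SGN-2FF and P-SiaFNEtoc, and 9.03%, 20.8%, 2.66% and 1.68% also changed by more than 0.58, the size set for naming genes of these lists. The count with P-SiaFNEtoc fell to 5 when all 14 libraries shared 1 fit, and that with Fucotrim I to 9 at an adjusted p under 0.01. Calls over all genes fell too, from 2331 to 998 and from 6209 to 4296.

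By role, 3 of 6 tested genes of steroid synthesis from cholesterol rose with Fucotrim I, 3 rose and 1 fell with Fucotrim II, none passed the threshold with SGN-2FF and 2 rose with P-SiaFNEtoc. Here and for each role below, 43.8%, 51.4%, 20.6% and 16.3% of all genes tested were past the threshold, in the same order. Each role holds few tested genes. FDXR, the reductase that passes electrons to mitochondrial steroid hydroxylases, rose with Fucotrim I from 19.7 to 27.4 CPM in DMSO to 35.4 to 37.6 CPM (log2 fold change 0.61 ± 0.09, adjusted p = 3.65e-05). With Fucotrim II it rose by 0.42 ± 0.14 (adjusted p = 0.0276), which was lost without DMSO replicate 2 (0.28), DMSO replicate 3 (0.44) or Fucotrim II replicate 2 (0.27). A fit without 1 Fucotrim II library holds a single treated library, whose spread is assumed to be that of DMSO.

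Among the other keto-reductases and dehydrogenases of steroids, 2 rose and 1 fell of 9 tested with Fucotrim I, 5 rose of 10 with Fucotrim II, 1 rose of 9 with SGN-2FF and 2 rose of 9 with P-SiaFNEtoc. HSD11B2, which inactivates cortisol, rose with every inhibitor. It was at 20.6, 19.8 and 18.7 CPM in DMSO, and at 34.2, 31.3 and 33.6 CPM with Fucotrim I, 31.9 in both libraries with Fucotrim II, 22.8, 26.2 and 23.4 CPM with SGN-2FF and 25.6, 25.9 and 27.6 CPM with P-SiaFNEtoc. Its log2 fold changes were 0.75 ± 0.08 (adjusted p = 2.27e-07), 0.69 ± 0.08 (0.000151), 0.31 ± 0.08 (0.00487) and 0.42 ± 0.07 (9.43e-05), of which the SGN-2FF call was lost without SGN-2FF replicate 2 (0.24, adjusted p = 0.0755). HSD17B3, the testosterone-forming enzyme of the testis, rose with Fucotrim II from 3, 5 and 9 counts in DMSO to 33 and 28 counts (log2 fold change 2.41 ± 0.42, adjusted p = 0.00114), and had 1 to 9 counts in every other treated library. It passed the filter on low counts only in the fit of Fucotrim II, through the libraries where it was high. A fall could thus not have been called, and its p-value and place among the 10 tested depend on the rise. Of the exon bases of HSD17B3, 66.4% are also exons of another annotated gene on the same strand.

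Of the other aldo-keto reductases, 2 of 3 tested rose with each Fucotrim, none passed the threshold with SGN-2FF and 1 rose with P-SiaFNEtoc. AKR1C4, the liver member of the AKR1C cluster, had 7, 8 and 12 counts in DMSO and 31 and 19 with Fucotrim II, a log2 fold change of 1.48 ± 0.40 (adjusted p = 0.0123) that was lost without Fucotrim II replicate 1 (1.03), again with a single treated library. With Fucotrim I it had 0.95 ± 0.37 (adjusted p = 0.0418), and the call was lost without any 1 of 5 of the 6 libraries (0.77 to 1.05) and in the DESeq2 test. AKR1A1, an aldehyde reductase, rose with Fucotrim II from 59.1 to 62.6 CPM in DMSO to 86.8 and 95.6 CPM (0.59 ± 0.07, adjusted p = 0.000137). Its smaller rises with Fucotrim I (0.18 ± 0.06, adjusted p = 0.0247) and P-SiaFNEtoc (0.16 ± 0.05, adjusted p = 0.0304) were lost in several fits that left out 1 library, with 0.14 to 0.17 and 0.12 to 0.17 in those.

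Genes of glucuronidation moved in different directions with Fucotrim I, where 2 rose and 2 fell of 5 tested. With Fucotrim II 2 of 5 fell, with SGN-2FF 1 of 6 fell, and with P-SiaFNEtoc 4 of 6 rose. UGT1A6 had 15, 8 and 8 counts in DMSO and 32, 25 and 25 with P-SiaFNEtoc (log2 fold change 1.39 ± 0.30, adjusted p = 0.00165). It did not pass the filter on low counts with either Fucotrim, and had 0.08 ± 0.41 with SGN-2FF (adjusted p = 0.914). With P-SiaFNEtoc it passed the filter through the libraries where it was high, so this p-value depends in part on the rise. UGT1A3 had 31, 31 and 25 counts in DMSO and 66, 41 and 54 with P-SiaFNEtoc (0.88 ± 0.20, adjusted p = 0.00262). It also rose with Fucotrim I (0.69 ± 0.22, adjusted p = 0.0147), a call lost without DMSO replicate 3 (0.64) and in the DESeq2 test. The UGT1A genes share their last exons, and 73.5% of the 100-base windows of UGT1A3 and 55.2% of those of UGT1A6 occur in other genes, so counts of single UGT1A genes are uncertain. UGT1A1 and UGT1A3 were the 2 genes that rose with Fucotrim I. With P-SiaFNEtoc the 4 were UGT1A1, UGT1A3, UGT1A6 and UGDH. The UGT1A calls may share reads, so they may not be separate results. UGT2B11, a close relative of UGT2B28, fell by 0.57 ± 0.21 on the log2 scale with Fucotrim I (adjusted p = 0.0325) and by 0.79 ± 0.23 with Fucotrim II (adjusted p = 0.018). Both calls were lost in the DESeq2 test and without single libraries, with -0.56 to -0.47 and -0.79 to -0.62 in those fits, of which the one without Fucotrim II replicate 1 had a single treated library.

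Of the genes that add or remove sulfate, 1 rose and 2 fell of 5 tested with each Fucotrim, and 1 rose with SGN-2FF and with P-SiaFNEtoc. PAPSS2, which makes the sulfate donor, was at 9.004 to 11.5 CPM in DMSO, 6.10 to 6.42 CPM with Fucotrim I and 6.015 and 5.995 CPM with Fucotrim II. It fell by 0.74 ± 0.13 (adjusted p = 9.47e-05) and by 0.81 ± 0.15 (adjusted p = 0.0014) on the log2 scale. It had -0.10 ± 0.12 with SGN-2FF and 0.28 ± 0.10 with P-SiaFNEtoc (adjusted p = 0.58 and 0.0557), the latter past the threshold without DMSO replicate 3 (0.34). STS, the sulfatase that frees steroids from their sulfates, was at 7.54 to 8.96 CPM in DMSO and 4.45 and 6.62 CPM with Fucotrim II, where it fell by 0.60 ± 0.18 (adjusted p = 0.0188). That call was lost without DMSO replicate 2 (-0.58) or DMSO replicate 3 (-0.56), and, with a single treated library left, without Fucotrim II replicate 1 (-0.34).

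Of 7 hydroxylases of steroids, only CYP1A1 and CYP1B1 passed the filter on low counts. Both oxidise oestrogens and are known targets of the aryl hydrocarbon receptor. CYP1A1 was at 49.99, 44.7 and 49.3 CPM in DMSO, higher with Fucotrim I at 137, 98.6 and 89.5 CPM and with Fucotrim II at 59.4 and 77.9 CPM, and lower with SGN-2FF at 27.7, 25.0 and 24.5 CPM. Its log2 fold changes were 1.18 ± 0.18 (adjusted p = 0.00457), 0.51 ± 0.11 (0.00347) and -0.89 ± 0.07 (1.18e-10), while P-SiaFNEtoc gave 0.03 ± 0.06 (0.749). CYP1B1 fell by 0.91 ± 0.17 with Fucotrim II (adjusted p = 0.00188) and by 0.59 ± 0.12 with SGN-2FF (adjusted p = 0.000776), from 8.33 to 10.1 CPM in DMSO to 5.89 and 4.19 CPM and to 6.002 to 6.53 CPM. With Fucotrim I it fell by 0.37 ± 0.13 (adjusted p = 0.0304), which was lost in the DESeq2 test and without any 1 of 4 libraries (-0.34 to -0.28), and with P-SiaFNEtoc it had 0.23 ± 0.10 (adjusted p = 0.13). Of the exon bases of CYP1B1, 12.8% lie opposite exons of other genes.

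**Figure D4:**
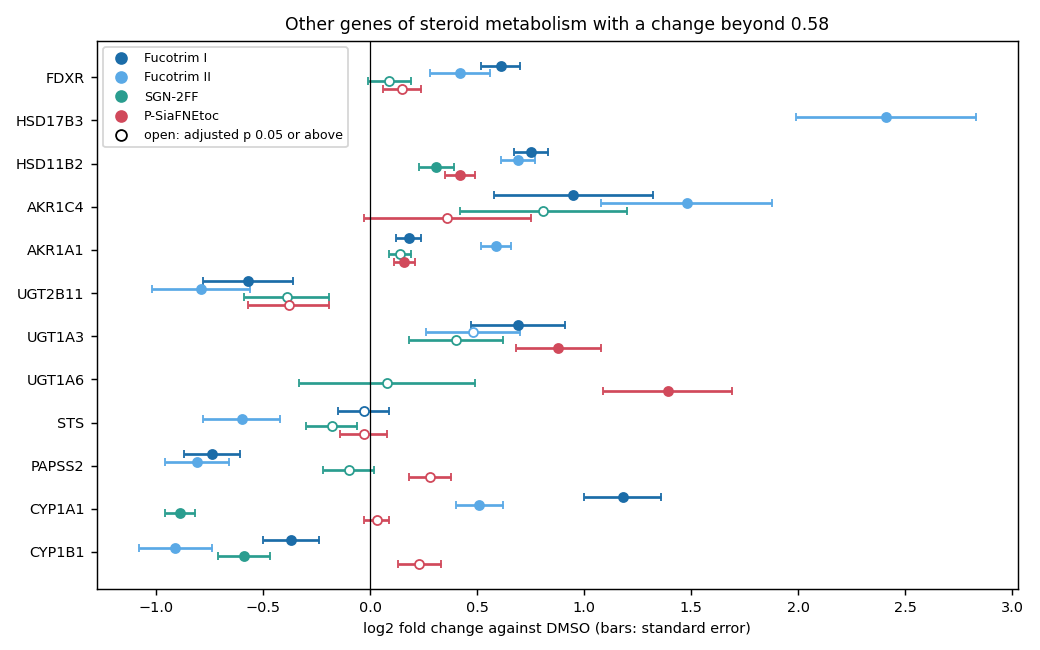
Log2 fold change against DMSO (horizontal axis) of the 12 other genes of steroid metabolism with an adjusted p under 0.05 and a change beyond 0.58 with at least 1 inhibitor. Filled points are past an adjusted p of 0.05 (edgeR), open points are not, and bars are 1 standard error. HSD11B2 is filled on the right with all 4 inhibitors, and CYP1A1 lies at 1.18 with Fucotrim I and -0.89 with SGN-2FF.

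AKR1C genes were set beside 16 other NRF2 targets, all of which were tested. The list of targets was chosen with earlier results of these data known, so its counts are a description. With Fucotrim I, 2 of the 16 rose and 12 fell, with Fucotrim II 1 rose and 10 fell, with SGN-2FF 2 rose and 12 fell, and with P-SiaFNEtoc 3 rose and 2 fell. Of all genes tested, 21.6%, 25.6%, 11.5% and 9.02% rose and 22.1%, 25.7%, 9.08% and 7.33% fell, in the same order of inhibitors. The median log2 fold changes of the 16 targets were -0.32, -0.47, -0.44 and 0. AKR1C3, at 0.77, 1.24, 0.72 and 1.03, and AKR1C2, at 0.34, 0.25, 0.46 and 1.29, were above these medians with each inhibitor. The highest of the 16 reached 0.78 with Fucotrim I, 0.68 with Fucotrim II, 0.28 with SGN-2FF and 0.41 with P-SiaFNEtoc, so that 1 of them lay above all 3 AKR1C genes with Fucotrim I and above AKR1C1 and AKR1C2 with Fucotrim II. Whether the AKR1C genes and the other targets differ was not tested.

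**Figure D5:**
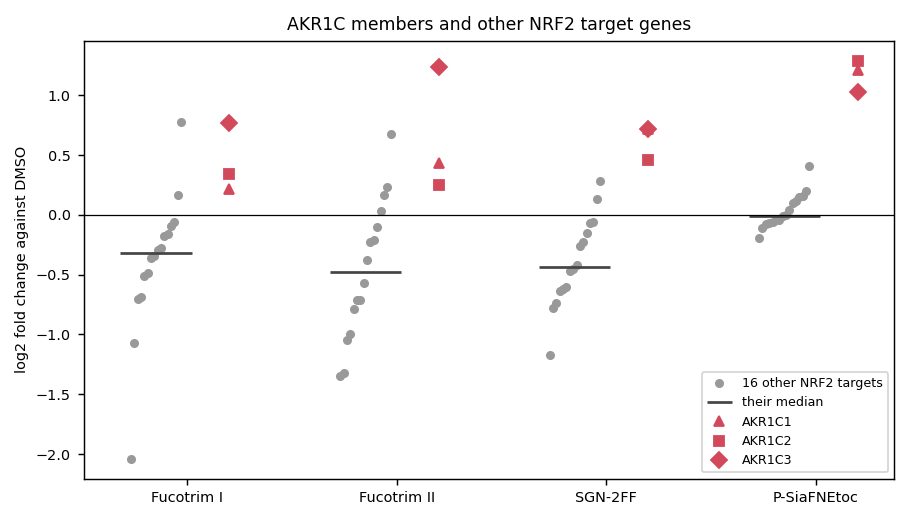
Log2 fold change against DMSO (vertical axis) of AKR1C1, AKR1C2 and AKR1C3 and of 16 other NRF2 target genes with each inhibitor (horizontal axis). Grey points are the other targets in order of value and the bar is their median, which is -0.32, -0.47, -0.44 and 0. The AKR1C genes lie above the median with all 4 inhibitors.

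Genes that androgens are known to induce were counted in the same way, and 12 of 13 were tested. This list too was chosen with earlier results of these data known. With Fucotrim I 7 rose and 1 fell, with Fucotrim II 8 rose and 4 fell, with SGN-2FF 8 rose and none fell, and with P-SiaFNEtoc 7 rose and 1 fell. Of all genes tested, 21.6%, 25.6%, 11.5% and 9.02% rose and 22.1%, 25.7%, 9.08% and 7.33% fell, in the same order of inhibitors. The median log2 fold changes of the androgen-induced genes were 0.42, 0.59, 0.61 and 0.21, against 0 to 0.01 over all genes. The androgen-repressed UGT2B15 had -0.37 ± 0.31, 0 ± 0.35, 0.23 ± 0.30 and 0.27 ± 0.26 beside them.

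Genes with the most similar set of 4 log2 fold changes were sought by Euclidean distance. This was done for 1 enzyme each of the AKR1C genes, the UGT2B genes and the remaining enzymes. It was the one with the largest absolute log2 fold change among those tested with all 4 inhibitors. UGT2B15 was the only UGT2B gene so tested. For AKR1C2 the nearest of 11835 genes was AKR1C1 (distance 0.34), followed by CX3CL1 (0.54), ANXA2 (0.55), DDC (0.57) and ASB9 (0.63). AKR1C1 and AKR1C2 shared 799 windows of 100 bases, so reads could have been split between them. Their values may therefore not be independent, which was not tested. DDC, for instance, had log2 fold changes of 0.13, 0.49, 0.73 and 0.91 with Fucotrim I, Fucotrim II, SGN-2FF and P-SiaFNEtoc. For HSD17B6 the nearest of 11836 genes were IFITM3 (0.17), GDPD3 (0.18), FAM24B (0.20), NFATC4 (0.20) and CERS1 (0.22), all with 0.82 to 0.95 under Fucotrim II. For UGT2B15 they were TRNP1 (0.14) and SV2A, PTHLH, LGR4 and LIPH (0.17 each), close to a gene whose own values are within about their errors. All distances share the same DMSO libraries and are a description.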

How the data were processed

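The authors made stranded mRNA libraries, sequenced single reads and processed them in Galaxy with Cutadapt (trimming), HISAT2 (alignment to hg38) and featureCounts (counting on genes). The authors deposited raw counts, 1 table per inhibitor with the same DMSO libraries in each (counts identical in 4 tables). The annotation release and the treatment of reads that map to several genes are not given in the sources used here. The study states 3 repeats per condition, and 2 Fucotrim II libraries were analysed here.

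Each inhibitor was fitted alone with DMSO by edgeR 4.0.16 in R 4.3.3: filterByExpr (minimum count 10, minimum total 15), TMM scaling, robust quasi-likelihood test, Benjamini-Hochberg adjustment over all genes tested, threshold 0.05. Standard errors came from the fold change and its F statistic. The authors used limma-voom, an alternative here (limma 3.58.1), as were DESeq2 1.42.0 (test and size factors), other filters, leaving out each library, a replicate block, an adjusted p under 0.01, summed families and, chosen after seeing the data, 1 fit of all 14 libraries. The fit was tested on simulated data. The enzymes and all gene lists were chosen with earlier results of these data known. Named genes outside the enzymes had an adjusted p under 0.05, a log2 fold change beyond 0.58 with at least 1 inhibitor and a mean of at least 10 counts, and genes searched for likeness a mean of at least 50. PPFIA2 was named after its match was seen. Positions are from GENCODE, promoter sequences from RefSeq (GRCh38.p14), aligned with Biopython 1.88. No labels give a batch. Some marker genes are not reported here.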

Additional observations from a re-analysis of the deposited data

How the results depend on the processing

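With only 2 or 3 libraries per group, fold changes of genes with under about 50 counts per library have wide errors, and reads of near-identical copies cannot be assigned with certainty. The cause of the changes below was not tested. Of 17 other genes of steroid metabolism past the threshold with Fucotrim I, 9 remained at an adjusted p under 0.01 (5 higher, 4 lower). Over all genes, 4296 of 6209 remained. With P-SiaFNEtoc, 5 were past it in 1 fit of all 14 libraries, chosen after seeing the data, against 10, and 4 of the 5 were among the 10. In that fit, 998 of all genes were past the threshold against 2331. The other settings kept this count within 1.5 times of that reported. Leaving out 1 library gave 12 to 17 genes with Fucotrim I, 13 to 17 with Fucotrim II, 4 to 7 with SGN-2FF and 7 to 10 with P-SiaFNEtoc. Fits without 1 Fucotrim II library hold a single treated library, assumed to vary like DMSO. Over all genes, leaving out 1 library gave 4877 to 6297 calls with Fucotrim I, 1642 to 3109 with SGN-2FF and 1516 to 2115 with P-SiaFNEtoc.

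Same-numbered libraries did not deviate together throughout (r from -0.43 to 0.29 over the titles' numbers). For Fucotrim II r was -0.33 and -0.43 by the titles and 0.43 and 0.17 by the numbers in the library names. The numbers were not taken as pairs. With a replicate block the counts were 20, 13, 5 and 11 for Fucotrim I, Fucotrim II, SGN-2FF and P-SiaFNEtoc, and 18 for Fucotrim II with its library-name numbers. Over all genes, the block gave 7288, 5300, 2868 and 2674 calls, and 7779 with those numbers. Without it there were 6209, 7511, 2946 and 2331, so the calls over all genes moved too. PAPSS2 with P-SiaFNEtoc passed the threshold under the block (adjusted p = 0.0361).

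No fold change past the threshold reversed under the alternatives run. Of enzymes and sums not past it, 17 values turned their sign, 11 of them for the UGT2B sum, 4 for HSD17B11 and 1 each for UGT2B15 and UGT2B17. For the enzymes, 425 values under alternatives moved by less than the spread between libraries and 19 by more, 10 of them by taking the AKR1C sum in place of 1 gene and 9 by leaving out 1 of the 2 Fucotrim II libraries. AKR1C3 was at 1.32 and 1.16 without Fucotrim II replicate 1 and 2, HSD17B4 at -0.16 and -0.02, HSD17B11 at 0.01 without replicate 1, and the AKR1C sum at 0.88 and 0.70. For the 12 other named genes, 534 values kept their side of the threshold, 52 lost it and 5 gained it. DESeq2's size factors moved the median log2 fold change of all genes by at most 0.006.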
